A study of Sus scrofa with 6 samples.

Results

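The genes described here build the ribosome: the subunits of RNA polymerase I, the proteins that fold, cut and modify ribosomal RNA in the nucleolus, and abundant nucleolar proteins. They were chosen by gene name in the deposited expression table, as the NOP, NOC, UTP, RRP, POLR1 and GNL families together with a short list of single genes (BOP1, PES1, FBL, NCL, NPM1, DKC1, NOLC1, NAT10, BYSL, WDR12 and UBTF). This rule found 45 of the 31908 gene IDs, and the rule itself uses names and no measured value, although it was set with earlier results of these data known. The libraries came from IPEC-J2, a non-transformed cell line from the jejunal epithelium of newborn pigs. The CON group was given PBS and the CDCA group was given 50 μM chenodeoxycholic acid (CDCA), a primary bile acid, for 24 h, with 3 libraries in each group. All 6 libraries come from the same cell line, and nothing in the labels says whether the replicates of a group were cultured on separate days, so the p-values measure the spread between these samples. Expression was given by the authors as TPM, the abundance of a transcript corrected for its length and scaled to the library. Levels of different genes can be compared only as far as their transcripts are listed.

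Ribosome production starts when RNA polymerase I transcribes the ribosomal DNA repeats into a long precursor. Small nucleolar ribonucleoproteins (snoRNPs) then modify the precursor, the small subunit processome folds and cuts its first part, and a separate series of factors matures the large subunit and takes it to the cytoplasm. The pathway is one of the most costly programs of a growing cell, and in the intestinal epithelium it is most active in dividing crypt cells.

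The files analysed hold TPM and no read counts per gene, and therefore no counting interval is printed. The listed TPM of a library summed to between 351769.8 and 366073.1, where a full library would reach 1000000, so a gene's value covers its listed transcripts and can miss others. Across tested genes, Pearson's r between libraries was 0.972 to 0.980 within a group and 0.927 to 0.934 across the groups, genes not being independent replicates. Of 7 epithelial markers 6 were listed, with sums of 624.4 to 648.0 TPM in CON and 1182 to 1322 TPM in CDCA. Most of that rise was CLDN4, a tight junction claudin, at 215 to 237 TPM in CON and 765 to 863 TPM in CDCA. KRT8 (190 to 238 TPM over the 6 libraries), KRT18 (64.6 to 79.2 TPM) and EPCAM (118 to 173 TPM) were abundant, whereas CDH1 (0.31 to 0.58 TPM) and VIL1 (0 to 0.64 TPM) were listed close to 0. The 7 fibroblast markers summed to between 1.16 and 1.97 TPM in every library, with LUM at 0 and DCN at or under 0.03 TPM. The 7 immune markers summed to 1.60 to 2.99 TPM in CON and to 8.02 to 8.70 TPM in CDCA, mostly from CD68, a lysosomal glycoprotein (0 to 0.26 TPM in CON, 4.44 to 5.33 TPM in CDCA), while the leukocyte marker PTPRC never exceeded 0.01 TPM. The 4 endothelial markers listed summed to 1.90 to 2.74 TPM. The part of these markers in the results was not tested. TPM are shares of a library, so in these bulk samples fewer cells of a kind and less RNA of a kind per cell cannot be told apart.

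Genes of ribosome production were mostly lower after CDCA treatment, by modest amounts. Of the 45 genes, 40 reached a mean of 1 TPM over the 6 libraries and were tested. Compared to the CON group, 25 of them were significantly decreased and 2 were significantly increased in the CDCA group (FDR under 0.05 by limma on log2(TPM + 1), adjusted over all 8708 tested genes). Among all tested genes 23.9% were decreased and 29.3% were increased by the same rule, against 62.5% and 5% of the tested genes of ribosome production. The median log2 fold change was -0.31 (quartiles -0.49 and -0.17), beside 0.048 (quartiles -0.28 and 0.36) for all tested genes. The libraries of both groups did not overlap for 31 genes (77.5%, against 61.5% of all tested genes). In 28 of them all CDCA values were the lower ones and in 3 the higher ones, which held for 27.8% and 33.7% of all tested genes.

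The falls were rarely large. Among the 25 decreased genes the ratio of mean TPM, CDCA to CON, ran from 0.534 to 0.847 with a median of 0.730. None passed the stricter limit of a log2 fold change below -1, by limma at an FDR under 0.05 or at an unadjusted p under 0.05, and 1 gene, NOP53, passed the limit above 1, where 3.90% and 3.51% of all tested genes did. Summed over the 45 genes, expression was 1575, 1556 and 1480 TPM in the CON libraries and 1189, 1202 and 1180 TPM in the CDCA libraries, a ratio of 0.774. NCL alone accounted for 56.8% of that fall in TPM. The 13 mRNAs encoded by mitochondrial DNA fell from a mean of 51850 TPM to 11430 TPM in the same libraries, and TPM of other genes are shares of the same total. With this loss set aside by dividing each library by 1000000 TPM, the full library, less its mitochondrial mRNAs (an alternative chosen after the data were seen), the median over all tested genes was -0.004 in place of 0.048 and that of ribosome production -0.37. On these full totals, 30 genes of ribosome production were decreased and 1 was increased, none was decreased past the stricter limit, and all tested genes split into 2370 decreased and 2230 increased, in place of 2085 and 2550. With division by the listed TPM alone, less mitochondrial mRNAs, which also changes the base of the scaling, the median over all tested genes moved by more than 0.1, to -0.083. On these listed totals the median of ribosome production was -0.45, 34 of its genes were decreased and 1 was increased, NCL, NOLC1 and NOP14 passed the stricter limit, and all tested genes split into 2781 decreased and 1750 increased. Such scalings move all genes of a library alike, so the distance between both medians, -0.36, is kept by construction apart from the pseudocount and the filter.

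**Figure D1:**
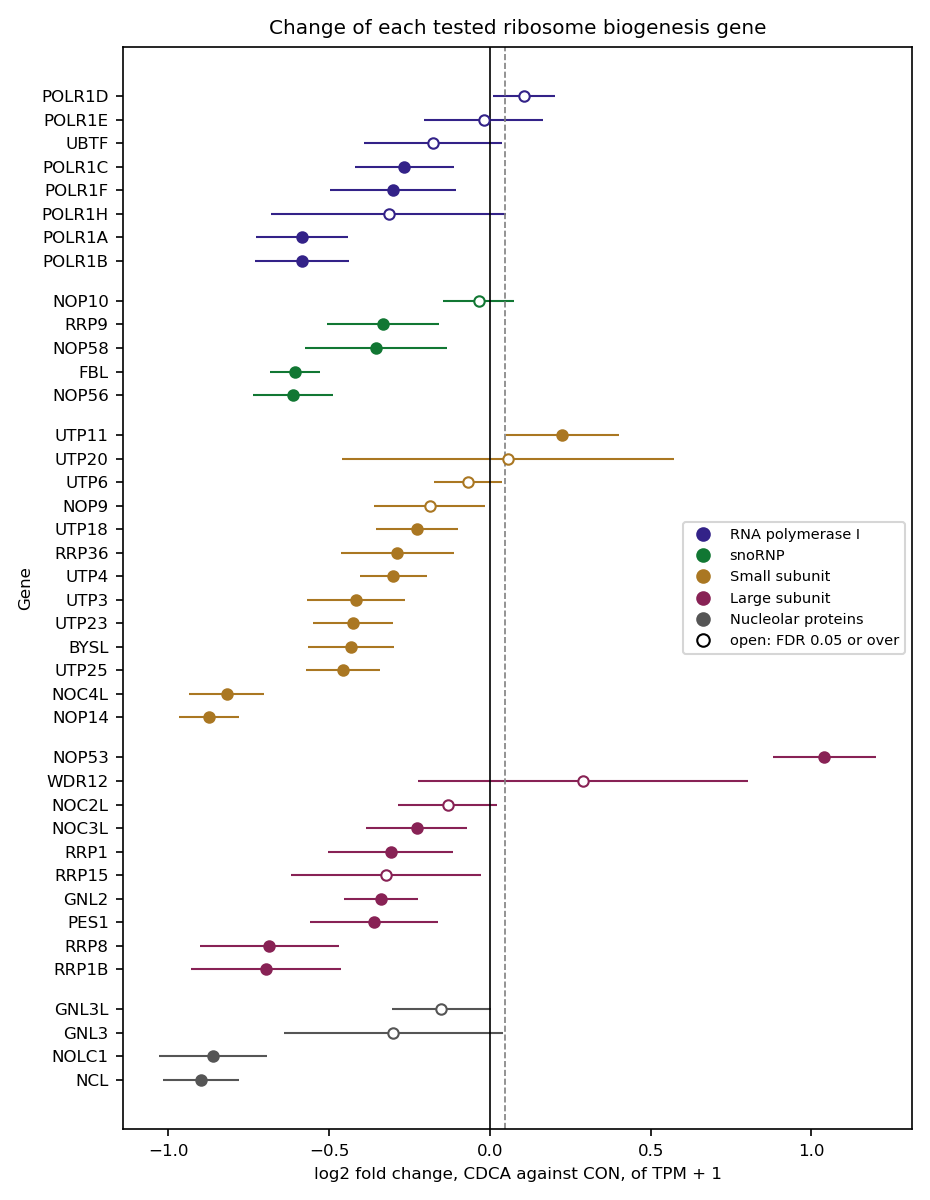
Log2 fold change of TPM + 1 in CDCA against CON (x axis) for the 40 tested genes of ribosome production (y axis), coloured by role, with 95% confidence intervals from limma. Filled points have an FDR under 0.05, open points do not, and the dashed line is the median of all tested genes (0.048). All but 5 genes lie left of 0, NCL lies farthest left (-0.90), and NOP53 lies farthest right (1.04).

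RNA polymerase I transcribes only the large ribosomal RNA precursor, and 7 of its POLR1 subunits matched the rule. POLR1A and POLR1B, the largest subunits, form its active site. POLR1B (ENSSSCG00000008098) was listed at 17.5, 16.4 and 15.6 TPM in the CON libraries, against 10.7, 10.3 and 11.0 TPM with CDCA. POLR1A (ENSSSCG00000008226) was listed at 15.6, 15.3 and 14.7 TPM without CDCA, against 9.87, 10.3 and 9.29 TPM with it. For both genes all CDCA libraries were below all CON libraries, with ratios of 0.647 (POLR1B) and 0.646 (POLR1A). The log2 fold change was -0.58 for each (SE 0.061, limma FDR 0.00032 for POLR1B, and SE 0.060, limma FDR 0.00029 for POLR1A).

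The estimates for the other subunits were smaller. POLR1F, part of the stalk that meets the initiation factor RRN3, decreased from 8.62 ± 0.59 to 6.81 ± 0.57 TPM (SD, n = 3 per group; log2 fold change -0.30), but its limma FDR of 0.020 rose to as much as 0.063 when CDCA replicate 2, CDCA replicate 3 or CON replicate 1 was left out. POLR1C, which RNA polymerase III also uses, decreased from 20.3 ± 1.4 to 16.7 ± 0.62 TPM (log2 fold change -0.27, limma FDR 0.012). POLR1H, which takes part in RNA cleavage and termination, was listed at 8.29, 7.49 and 5.52 TPM for CON, compared with 5.18, 4.89 and 6.34 TPM for CDCA. Its groups overlapped, and its log2 fold change of -0.31 had a 95% interval from -0.68 to 0.050. POLR1E, which acts in initiation and elongation, was at 7.90 ± 0.41 TPM in CON and 7.79 ± 0.63 TPM in CDCA (95% interval of the log2 fold change -0.21 to 0.17). POLR1D, the other subunit shared with RNA polymerase III, had by far the highest TPM of the 7, at 197, 204 and 195 TPM in the CON libraries, against 211, 223 and 208 TPM with CDCA. Every CDCA library was above every CON library for POLR1D, but its log2 fold change was 0.11 with a limma FDR of 0.061, and it was 0.047 on full totals and -0.047 on listed totals without mitochondrial mRNAs. Group means of the remaining 6 subunits lay between 5.47 and 20.3 TPM. In order of mean TPM, POLR1C came next, then POLR1B and POLR1A, whose library values overlapped in CON and met without overlap in CDCA (lowest POLR1B 10.32 TPM, highest POLR1A 10.31 TPM), and then POLR1E, POLR1F and POLR1H, whose values overlapped in CON. UBTF, which binds and bends the ribosomal DNA for RNA polymerase I, was listed at 5.42, 6.17 and 5.84 TPM without CDCA, against 4.53, 5.02 and 5.54 TPM with it (log2 fold change -0.18, limma FDR 0.14).

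**Figure D2:**
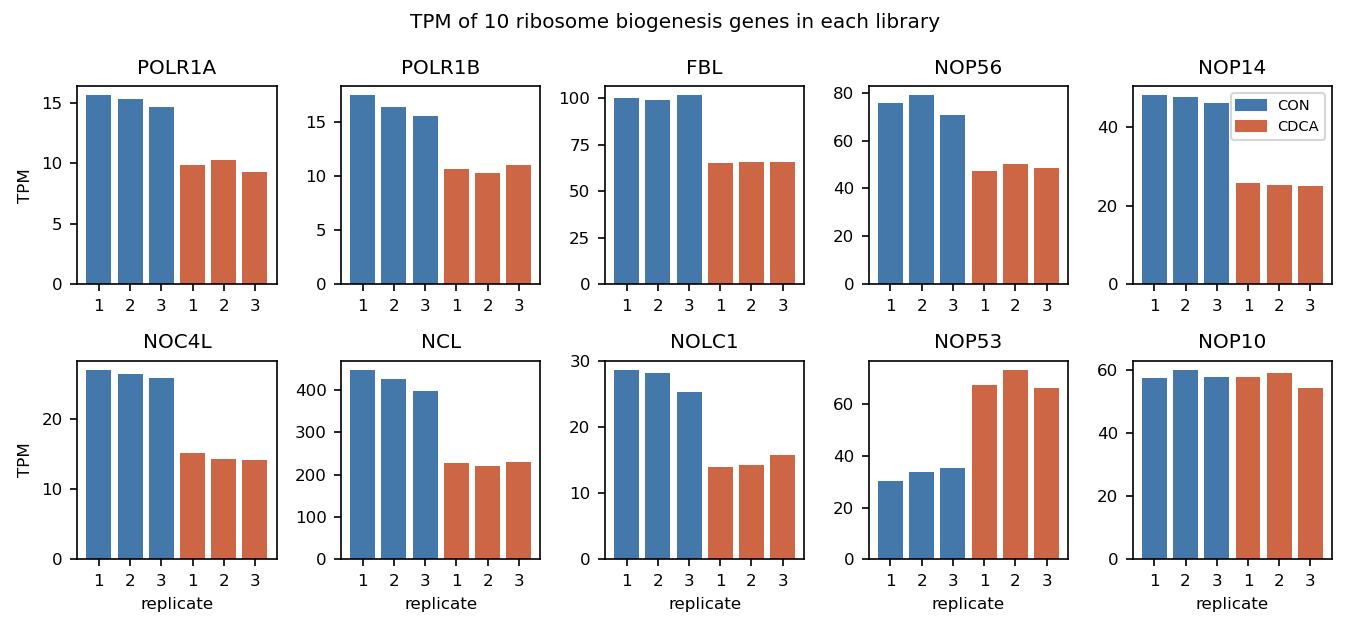
TPM (y axis, from 0) of 10 genes in each of the 3 CON libraries (blue) and 3 CDCA libraries (orange), by replicate number on the x axis. POLR1A, POLR1B, FBL, NOP56, NOP14, NOC4L, NCL and NOLC1 are lower in every CDCA library, NOP53 is higher in every CDCA library, and NOP10 overlaps between the groups.

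Within some of these genes, single transcripts had means in opposite directions, given here as values without a test. The table gives transcripts without identifiers, so they are numbered here by their mean TPM. Both abundant transcripts of POLR1B had lower means in CDCA, with ratios of 0.646 and 0.647. The leading transcript of UBTF was listed at 4.34, 4.59 and 3.77 TPM for CON, compared with 1.81, 2.35 and 1.79 TPM for CDCA, a ratio of 0.469, while the next one went from 0.71, 0.70 and 1.12 TPM to 1.46, 1.14 and 2.56 TPM. With the leading transcript in place of the gene sum, UBTF had a log2 fold change of -0.81 (limma FDR 0.0018), and it was then a decreased gene. For POLR1C, transcript 2 was listed at 0 in all CON libraries and at 2.32, 2.59 and 2.28 TPM in CDCA, and transcript 3 was listed at 1.42, 2.41 and 2.40 TPM with CON and at 0 in every CDCA library. The leading transcript of POLR1C had a ratio of 0.789. For POLR1D the leading transcript had a ratio of 0.973 and the other a ratio of 1.32. Over all genes of ribosome production, 52 listed transcripts had a mean of at least 1 TPM and 45 of them (86.5%) had a lower mean in CDCA, against 46.1% of all 12204 listed transcripts of that level. Transcript values without identifiers or counts cannot be checked against the reads, and exact zeros in such a table can be failed estimates.

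**Figure D3:**
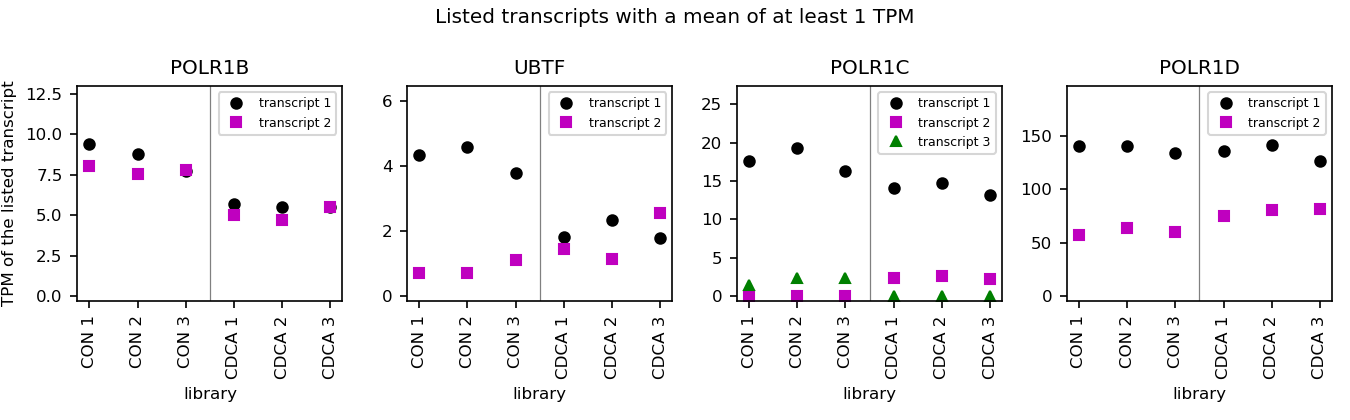
TPM of single listed transcripts (y axis) in the 6 libraries (x axis, CON left and CDCA right of the line) for POLR1B, UBTF, POLR1C and POLR1D, with transcripts numbered by mean TPM. Both POLR1B transcripts have lower values in CDCA, UBTF transcript 1 has lower and transcript 2 higher values in CDCA, and POLR1C transcripts 2 and 3 are each at 0 in the 3 libraries of opposite groups.

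Subunits of the other nuclear polymerases were compared as a list. Of 8 tested POLR2 genes, 3 were decreased (37.5%, against 23.9% of all tested genes) and 2 were increased (25%, against 29.3%), with a median log2 fold change of -0.21. POLR2F, POLR2H and POLR2K are among the subunits common to the 3 nuclear polymerases. POLR2F was decreased (140, 125 and 131 TPM in CON, 72.7, 87.2 and 85.3 TPM in CDCA, log2 fold change -0.69, limma FDR 0.00050), and POLR2K, picked after its values were seen, was decreased by 0.26 on the log2 scale (limma FDR 0.0099). POLR2H was increased from 5.03 ± 0.20 to 11.5 ± 1.5 TPM (log2 fold change 1.05, limma FDR 0.00023). The change of POLR2H was under 1 without CDCA replicate 1 (0.98), on full or listed totals without mitochondrial mRNAs, and with the leading transcript (0.89). Of the 8 subunits of RNA polymerase III in the list used here, all tested, 2 were increased (25%, against 29.3%), POLR3C (0.87) and POLR3A (0.38, picked after its value was seen, and without an FDR under 0.05 on listed totals without mitochondrial mRNAs, 0.068, or with the leading transcript, 0.10). The median of these 8 was -0.013. The medians of the 3 sets of subunits were not tested against each other.

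**Figure D4:**
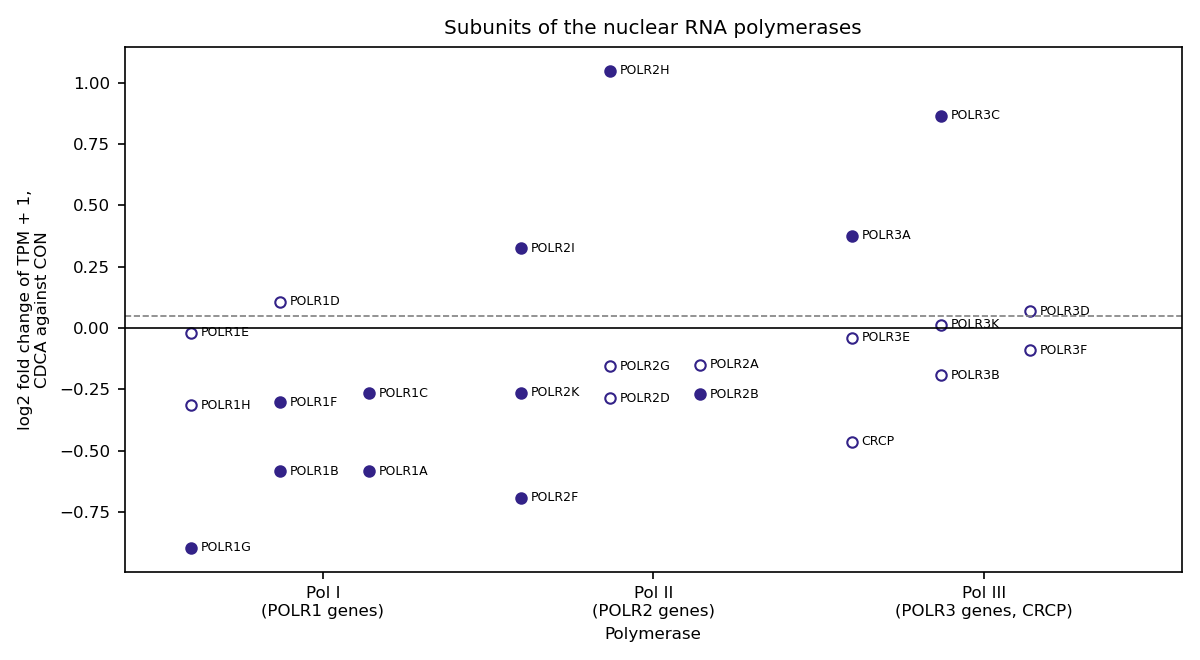
Log2 fold change of TPM + 1 in CDCA against CON (y axis) of the listed and tested subunit genes of RNA polymerases I, II and III (x axis). Filled points have an FDR under 0.05 by limma and the dashed line is the median of all tested genes. POLR1 genes lie between -0.90 (POLR1G, matched by its reference symbol) and 0.11 (POLR1D), while POLR2H (1.05) and POLR3C (0.87) lie highest.

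Of 5 tested genes for snoRNP proteins, 4 were decreased (80%, against 23.9% of all tested genes). FBL is the methyltransferase of the box C/D snoRNPs, which methylate ribose in ribosomal RNA, and NOP56 and NOP58 are its scaffold. FBL was listed at 99.9, 99.0 and 101 TPM in the CON libraries, against 64.9, 65.9 and 65.6 TPM with CDCA. The CDCA libraries of FBL were within 1 TPM of each other and clearly below CON (log2 fold change -0.61, SE 0.033, limma FDR 2.4e-05). NOP56 was listed at 75.8, 78.9 and 70.6 TPM without CDCA, against 47.4, 50.2 and 48.5 TPM with it, and the change was -0.61 on the log2 scale (SE 0.052, limma FDR 0.00013). NOP58 decreased from 29.9 ± 3.6 to 23.1 ± 1.5 TPM (log2 fold change -0.35, limma FDR 0.017, and 0.054 without CDCA replicate 2). RRP9, the protein particular to the U3 snoRNP that directs the first cuts of the precursor, decreased from 14.6 ± 0.68 to 11.4 ± 0.92 TPM (-0.33, limma FDR 0.0085). NOP10, of the box H/ACA snoRNPs that make pseudouridine, was at 58.4 ± 1.3 TPM in CON and 57.0 ± 2.5 TPM in CDCA, and its 95% interval of -0.14 to 0.075 lay above the whole interval of FBL (-0.68 to -0.53). DKC1, the pseudouridine synthase, was listed at no more than 0.76 TPM in any library and was not tested.

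The largest role was the small subunit processome and later small subunit maturation, with 17 genes, of which 13 were tested. Of these, 9 were decreased (69.2%, against 23.9% of all tested genes) and 1 was increased (7.69%, against 29.3%). NOP14 and NOC4L, which work as partners in the processome, fell furthest. NOP14 was listed at 48.0, 47.5 and 46.2 TPM for CON, compared with 25.6, 25.3 and 25.01 TPM for CDCA. NOC4L was listed at 27.0, 26.5 and 25.9 TPM in the CON libraries, against 15.2, 14.3 and 14.1 TPM with CDCA. Libraries of the groups were far apart for both, with log2 fold changes of -0.87 (SE 0.039, limma FDR 1.2e-05) and -0.82 (SE 0.049, limma FDR 3.6e-05).

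The remaining decreases in this role had smaller estimates. UTP25 (21.2 ± 0.22 to 15.2 ± 0.54 TPM), BYSL (15.2 ± 0.36 to 11.0 ± 0.51 TPM), UTP23 (31.2 ± 1.5 to 22.96 ± 0.64 TPM) and UTP3 (13.1 ± 0.64 to 9.55 ± 0.45 TPM) had log2 fold changes between -0.46 and -0.42. BYSL acts late in small subunit maturation, and the others act in the processome. UTP4, of the subcomplex that joins the precursor during transcription, decreased from 34.2 ± 1.1 to 27.6 ± 0.33 TPM (-0.30). RRP36 (-0.29) and UTP18 (-0.23) were also decreased, and the FDR of RRP36 rose above 0.05 (at most to 0.057) with CDCA replicate 1 or CON replicate 2 left out. UTP11 was the exception, at 50.6, 44.3 and 42.6 TPM without CDCA, against 53.7, 50.9 and 56.3 TPM with it. Its log2 fold change was 0.23 (limma FDR 0.039). The FDR was over 0.05 without CON replicate 2 or 3 or CDCA replicate 1 or 3 (at most 0.11), and it was 0.11 on full totals and 0.45 on listed totals without mitochondrial mRNAs, where the log2 fold change was 0.17 and 0.074. Without trend, with median-ratio scaling, without a filter and with the replicate number as a block, the FDR of UTP11 lay between 0.057 and 0.087. UTP6 was at 41.4 ± 0.76 TPM in CON and 39.4 ± 1.5 TPM in CDCA (95% interval of the log2 fold change -0.17 to 0.036). NOP9 (-0.19, limma FDR 0.067) and UTP20 (0.056, limma FDR 0.84, at 1.31 to 2.76 TPM) were not called either way.

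Genes of the small subunit that were not tested were listed at very low values. NAT10, which acetylates small subunit rRNA, was listed at 0.39, 0.33 and 0.57 TPM for CON, compared with 0, 0 and 0.17 TPM for CDCA. RRP12, an export factor, lay between 0.13 and 0.25 TPM, RRP7A between 0.47 and 1.30 TPM, and UTP15 was listed at 0 in all 6 libraries. With the listed TPM far under a full library, such values do not show that a gene is silent.

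All 10 genes of the large subunit role were tested, and 6 were decreased (60%, against 23.9% of all tested genes) and 1 was increased (10%, against 29.3%). RRP1B, a nucleolar processing factor, was listed at 11.7, 12.3 and 11.0 TPM in the CON libraries, against 7.94, 6.25 and 6.32 TPM with CDCA, and each of its 3 listed transcripts had a lower mean in CDCA (ratios 0.512 to 0.604). RRP8, a methyltransferase of large subunit rRNA, was listed at 12.5, 14.1 and 12.3 TPM without CDCA, against 7.62, 8.55 and 6.91 TPM with it. Neither gene overlapped between the groups, and the log2 fold changes were -0.70 (SE 0.098, limma FDR 0.0013) and -0.69 (SE 0.091, limma FDR 0.00095).

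PES1, GNL2, RRP1 and NOC3L were decreased with smaller estimates. PES1, which works in a complex with BOP1 and WDR12, decreased from 21.6 ± 1.6 to 16.6 ± 1.5 TPM (log2 fold change -0.36, limma FDR 0.010). WDR12 was listed at only 0.53 to 1.67 TPM, and its 95% interval of -0.22 to 0.80 gives no direction. GNL2, a nucleolar GTPase, decreased from 17.7 ± 0.51 to 13.8 ± 0.061 TPM (-0.34). RRP1 (-0.31, limma FDR 0.017) and NOC3L (-0.23, limma FDR 0.025) lost the call in some fits, with an FDR of up to 0.060 for RRP1 (without CON replicate 1 or 2) and up to 0.081 for NOC3L (without any library but CON replicate 3). RRP15 (-0.32, limma FDR 0.065) and NOC2L (-0.13, limma FDR 0.13) did not pass the test.

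NOP53 was increased. It helps to bring the RNA exosome to large subunit precursors and is also studied as a nucleolar stress sensor. NOP53 (ENSSSCG00000022774) was listed at 30.4, 33.6 and 35.2 TPM for CON, compared with 67.4, 73.2 and 66.4 TPM for CDCA. Every CDCA library was well above every CON library, and the ratio of means was 2.09. Its log2 fold change was 1.04 (SE 0.067, 95% interval 0.88 to 1.20, limma FDR 4.6e-05). It stayed increased in all 16 alternative analyses, between 0.89 and 1.09, but its log2 fold change was under 1 with median-ratio scaling (0.99), on full totals (0.98) and listed totals (0.89) without mitochondrial mRNAs, and without CDCA replicate 2 or CON replicate 1 (at least 0.98). The gene has 1 listed transcript.

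Of the 4 nucleolar proteins 2 were decreased (50%, against 23.9% of all tested genes), NCL and NOLC1. NCL (nucleolin), an RNA-binding protein of the dense nucleolus, had the highest listed TPM of the set, at 447, 426 and 397 TPM in CON, falling to 228, 221 and 230 TPM with CDCA. NOLC1, which escorts snoRNPs and binds RNA polymerase I, was listed at 28.6, 28.2 and 25.3 TPM in the CON libraries, against 13.9, 14.3 and 15.7 TPM with CDCA. Both were clearly separated between the groups, with log2 fold changes of -0.90 (SE 0.049, limma FDR 2.5e-05) and -0.86 (SE 0.070, limma FDR 0.00011). The log2 fold change of NCL lay at the 5.4 percentile of all tested genes, and that of NOP53 at the 96.3 percentile. GNL3 (nucleostemin), a GTPase of proliferating cells, was at 2.95 ± 0.44 TPM in CON and 2.21 ± 0.44 TPM in CDCA (limma FDR 0.12), and its relative GNL3L at 62.0 ± 5.0 TPM and 55.6 ± 1.3 TPM (limma FDR 0.089).

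A further 5 genes of the same kind carry no name in the deposited table and were found only through the reference symbols, so they were kept out of the counts above. POLR1G, which pairs with POLR1E, was listed at 8.30, 8.92 and 8.67 TPM without CDCA, against 4.17, 4.35 and 4.01 TPM with it. The ratio of means was 0.484. The log2 fold change, of TPM + 1, was -0.90 (95% interval -1.06 to -0.74, limma FDR 7.8e-05), beside an interval of -0.73 to -0.44 for POLR1B. The change of POLR1G ran from -1.03 to -0.87 over the 16 alternative analyses. NOP2, a methyltransferase of large subunit rRNA, decreased from 10.1 ± 0.31 to 5.62 ± 0.56 TPM (log2 fold change -0.75) and NOP16 from 12.8 ± 0.44 to 8.52 ± 0.29 TPM (-0.53). NPM1 (nucleophosmin), another abundant nucleolar chaperone, was listed at 295, 272 and 252 TPM for CON, compared with 292, 291 and 294 TPM for CDCA. Its groups overlapped, and its log2 fold change was 0.10 (95% interval -0.039 to 0.24), which does not meet the interval of NCL (-1.02 to -0.78). BOP1 was listed at 0.37 TPM or less. With these 5 genes included, 28 of 44 tested genes were decreased (63.6%, against 23.9% of all tested genes) and 2 were increased (4.55%, against 29.3%).

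Other genes of the pathway, taken from lists written from general knowledge with earlier results of these data known, leaned the same way, with exceptions. They were not tested against the genes above. Of 114 tested genes, 53 were decreased (46.5%, against 23.9% of all tested genes) and 12 were increased (10.5%, against 29.3%), with a median log2 fold change of -0.22. Among 7 further factors of RNA polymerase I, TCOF1 (treacle), which partners UBTF on ribosomal DNA, fell most, from 10.1, 10.6 and 10.5 TPM to 5.33, 5.31 and 5.41 TPM (log2 fold change -0.84, limma FDR 5.8e-05). RRN3, the initiation factor that recruits the polymerase, was instead increased from 9.06, 8.86 and 9.17 TPM to 12.5, 12.1 and 12.5 TPM (0.41, limma FDR 0.00074). TAF1B, of the promoter selectivity factor, was also increased (0.35), and MYBBP1A was decreased (-0.79). Both were picked after their values were seen. TCOF1, POLR1B, POLR1C and POLR1D are the genes mutated in Treacher Collins syndrome, and of these only POLR1D was not decreased.

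In the other lists, 4 of 10 tested snoRNP genes were decreased (40%, against 23.9% of all tested genes), led by RUVBL1, a helicase used in assembly, at 78.6, 80.8 and 76.1 TPM in the CON libraries, against 40.8, 40.3 and 42.5 TPM with CDCA (log2 fold change -0.91). Of 34 small subunit genes, 14 were decreased (41.2%, against 23.9%) and 3 increased (8.82%, against 29.3%). NOL6 passed the stricter limit, from 8.21, 8.66 and 8.66 TPM to 3.19, 3.08 and 3.22 TPM (-1.19, limma FDR 2.6e-05), and NOL7 was the largest rise (0.65). Of 18 nucleases and their cofactors, 10 were decreased (55.6%, against 23.9%), with a median of -0.42. The exosome subunit EXOSC9 fell from 7.64, 7.65 and 7.52 TPM to 2.86, 2.88 and 4.14 TPM (-1.02), past the stricter limit, but not so without CDCA replicate 1 or 2 (-0.95 in each fit).

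Of 45 tested large subunit genes in the wider list, 22 were decreased (48.9%, against 23.9% of all tested genes) and 7 were increased (15.6%, against 29.3%). NIP7, a nucleolar factor, fell furthest (15.6, 12.9 and 14.1 TPM in CON, 5.22, 6.75 and 6.99 TPM in CDCA, log2 fold change -1.06), but it was not past the stricter limit without CDCA replicate 1 (-0.94) or CON replicate 1 or with its leading transcript (-0.93). EIF6, which keeps large subunits from joining too early, rose furthest, from 176, 196 and 176 TPM to 284, 305 and 297 TPM (0.69, limma FDR 9.1e-05). The remaining 6 increased genes, named after their values were seen, were NSA2 (0.44), NMD3, an export adaptor (0.42), GTPBP10 (0.32), SBDS (0.29), LAS1L (0.28) and EFL1 (0.26), of which SBDS and EFL1 release EIF6. On listed totals without mitochondrial mRNAs, GTPBP10, SBDS, LAS1L and EFL1 had an FDR over 0.05, on full totals GTPBP10 did (0.089), and that of GTPBP10 was also over 0.05 (at most 0.12) without CON replicate 2 or any one of the CDCA replicates. Without trend, with median-ratio scaling, without a filter and with the leading transcript, the FDR of GTPBP10 lay between 0.055 and 0.11.

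The cytosolic ribosomal protein genes, whose products the pathway assembles with rRNA, went the other way. Of 58 tested, 47 were increased (81.0%, against 29.3% of all tested genes) and 2 were decreased (3.45%, against 23.9%), with a median log2 fold change of 0.36. RPL4 was the largest rise (710, 685 and 663 TPM in CON, 1091, 1118 and 1119 TPM in CDCA, 0.69). RPL35A was the largest fall (11.4, 11.7 and 10.1 TPM in CON, 5.93, 5.76 and 5.63 TPM in CDCA, -0.83). These values of RPL35A lie far under the median of 889.4 TPM of the tested genes in this list, so they can miss transcripts. The summed expression of the 61 listed genes was 55431, 54995 and 53386 TPM in CON and 69920, 72999 and 71235 TPM in CDCA, a ratio of 1.31. The ratio of the ribosome production genes was 0.774. It was 0.82 without NCL and POLR1D, and 0.815 with the genes matched only by reference symbol added. On full totals without mitochondrial mRNAs, 43 cytosolic ribosomal protein genes were increased and 3 decreased, and on listed totals 40 and 3. Mitochondrial ribosomal protein genes, which serve a separate ribosome, had a median of -0.17, with 25 of 60 decreased (41.7%, against 23.9% of all tested genes) and 10 increased (16.7%, against 29.3%). MRPS12 was the largest fall among the decreased genes and passed the stricter limit (23.4, 25.7 and 22.4 TPM in CON, 10.1, 12.1 and 10.5 TPM in CDCA, -1.07, limma FDR 9.4e-05), and MRPL24 was the largest rise (0.66). These lists are set side by side, and the difference between them was not tested.

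**Figure D5:**
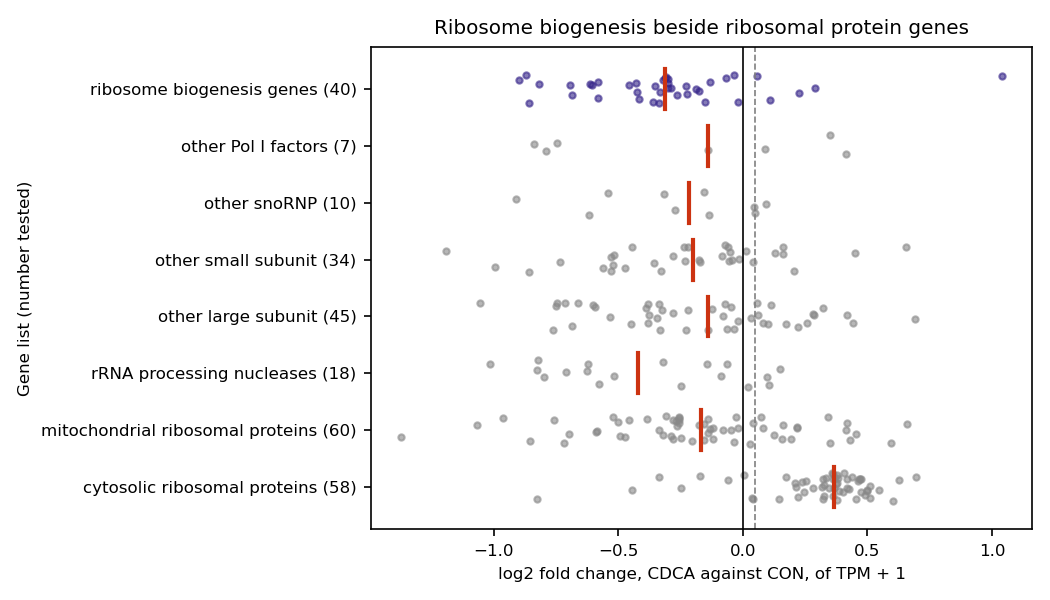
Log2 fold change of TPM + 1 in CDCA against CON (x axis) of each tested gene, by list (y axis, with the number tested), where red bars are list medians and the dashed line is the median of all tested genes. The median is -0.31 for the ribosome biogenesis genes, -0.42 for the rRNA processing nucleases, -0.17 for mitochondrial and 0.36 for cytosolic ribosomal protein genes.

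Of 7 tested regulators that act on this pathway or respond to it, 3 were decreased and 3 were increased (42.9% each, where 23.9% and 29.3% of all tested genes were). MYC, a transcription factor that drives many of these genes, was listed at 84.1, 89.1 and 91.0 TPM without CDCA, against 78.3, 77.6 and 79.3 TPM with it (log2 fold change -0.17, limma FDR 0.014, 0.052 without CON replicate 2 and 0.22 with the leading transcript). Its binding partner MAX was at 14.9 ± 0.46 and 17.8 ± 0.24 TPM (0.24), which turned to -0.056 with the leading transcript in place of the gene sum and had an FDR of 0.13 on listed totals without mitochondrial mRNAs. MNT, a repressor that competes for MAX, rose from 4.07 ± 0.12 to 6.75 ± 0.17 TPM (0.61, limma FDR 0.00038). MXD3, another such competitor, fell from 4.82 ± 0.32 to 1.32 ± 0.21 TPM (-1.33), and MXD1 went from 0.84, 1.54 and 0.24 TPM to 2.36, 1.80 and 4.96 TPM (1.09, limma FDR 0.039). The call of MXD1 was lost in 4 of 6 fits with 1 library left out, with an FDR of at most 0.11 (without either of CDCA replicates 1 and 3 or CON replicates 1 and 3). It was also lost without a filter on low values (0.098), with the replicate number as a block (0.090), on listed totals without mitochondrial mRNAs (0.054) and with the leading transcript (0.32). MXI1 did not pass the test (-0.31, limma FDR 0.11). MDM2, a ubiquitin ligase that free ribosomal proteins can bind, fell from 9.03 ± 2.1 to 5.78 ± 0.51 TPM (-0.55, limma FDR 0.023, up to 0.068 without CDCA replicate 2 or 3, and 0.058 without a filter). MYCN and CDKN2A were listed at 0 in all libraries.

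Some of these values can carry reads of a neighbour. In the RefSeq annotation of the pig (assembly Sscrofa11.1), 14 of the 42 genes of ribosome production that it names overlap another gene, among them NOP14 (with GRK4), NOP56 (with IDH3B), POLR1A (with PTCD3), POLR1C (with XPO5) and GNL2 (with DNALI1). The sources used here do not say whether counting used strand. NPM1 has processed copies in mammalian genomes, so its value is uncertain too. Processed copies of other genes, including the ribosomal protein genes, were not examined. The paper reports a larger share of multiply mapped reads in CON than in CDCA, and its part in these values was not tested.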

How the data were processed

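Paired-end Illumina RNA-seq of 3 CON and 3 CDCA libraries was analysed. Transcript abundance was estimated by the authors with RSEM and deposited as TPM, in 63041 rows without transcript identifiers for 31908 Ensembl pig gene IDs, with no counts. Per the submitters' processing notes, Bowtie 0.12.2 and the mouse build mm10 were named, which does not match pig gene IDs, so the build is not settled here, and no coordinates are given. The annotation release and the version of RSEM are not given in the sources used here.

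TPM of the listed transcripts were summed per gene ID. Genes of ribosome production were taken by deposited gene name, and genes of other lists by a table of Ensembl IDs and symbols (15029 IDs), then by deposited name (17501 IDs with a symbol in all). CDCA and CON were compared with limma 3.58.1 in R 4.3.3 (lmFit, eBayes with trend, two-sided, no block) on log2(TPM + 1), so that changes of weak genes are understated, for the 8708 genes whose mean reached 1 TPM, with Benjamini-Hochberg adjustment. An FDR under 0.05 made a gene decreased or increased, and the stricter limit added a log2 fold change over 1 in size. The authors used edgeR, which needs counts. The steps were tested on simulated data. Errors are SD over 3 libraries.

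The genes, lists and tests were chosen with earlier results of these data known. Named were all POLR1 subunits, and in each other role the highest gene, the 2 largest rises and falls and every gene past the stricter limit. In each other list, the largest rise and fall among genes with an FDR under 0.05 and every gene past the stricter limit were named. Each tested regulator was named as well. Other genes of ribosome production are given as values. Of the lists for RNA polymerase III and for regulators, 1 gene each is not reported here and is not in their counts. Alternatives are a pseudocount of 0.1 TPM, no filter or a mean of at least 5 TPM, 4 other scalings (1 of them added after the data were seen), the replicate number as a block, the leading transcript, eBayes without trend, each library left out, and membership by reference symbol.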

Additional observations from a re-analysis of the deposited data

How the results depend on the processing

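Of the 27 genes of ribosome production that passed the test, 21 kept their direction and an FDR under 0.05 in all 16 alternative analyses, none changed direction, and 6 (NOC3L, NOP58, POLR1F, RRP1, RRP36 and UTP11) lost the FDR in at least 1. The count of decreased genes ran from 22 to 28 with 1 library left out (1731 to 1936 over all tested genes). It was 24 with the replicate block (1902 over all tested genes). The count of increased genes was 1 in place of 2 without trend, with median-ratio scaling, without a filter, with the replicate block and on full and listed totals without mitochondrial mRNAs, 1 to 2 with 1 library left out, and 3 with the listed TPM rescaled. Past the stricter limit, the 1 increase became 0 with median-ratio scaling and on both totals (0 to 1 with 1 library left out), and the 0 decreases became 3 on the listed totals only. The ratio of summed TPM was 0.748 with median-ratio scaling, 0.743 on full totals and 0.696 on listed totals. The listed totals, which change the base as well as leaving out the mRNAs, gave a median of -0.45, 4 decreased nucleolar proteins in place of 2, 7 increased genes in the other lists in place of 12, and 6 increased mitochondrial ribosomal protein genes in place of 10 (6 to 10 with 1 library left out). Decreased cytosolic ribosomal protein genes were 1 without a filter, 1 with the replicate block and 1 to 3 with 1 library left out. Over all tested genes, 306 were past the stricter limit upward, and 522 with the listed TPM rescaled, 197 at a mean of at least 5 TPM and 509 with a pseudocount of 0.1 TPM. Scaling by a total moves every gene by the same factor; the cause of the other differences was not tested.

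Direction changed for 7 genes. UTP20 was at -0.044 on listed totals without mitochondrial mRNAs, -0.12 without CDCA replicate 2 and -0.087 without CON replicate 3, within -0.12 to 0.22 with 1 library left out. POLR1E was at 0.036 without CDCA replicate 1 and 0.019 without CON replicate 1 (-0.066 to 0.036 with 1 library left out), and NOP10 at 0.0006 without CDCA replicate 3 (-0.061 to 0.0006). POLR1D was at -0.041 with its leading transcript and -0.047 on listed totals without mitochondrial mRNAs, where NPM1 was at -0.053. On full totals these were 0.047 and 0.041, and UTP20 was at 0.017. With the leading transcript, POP7 was at 0.17 in place of -0.52 and MAX at -0.056 in place of 0.24. Libraries of the same number did not deviate together (r of -0.035, -0.092 and -0.051 over genes). With 3 libraries per group, these values do not settle whether samples of the same number were handled together. The replicate block changed the call of NOC3L and UTP11 and of no other gene of ribosome production.

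Without read counts per gene, the counting error of genes listed near 0, such as NAT10, DKC1 and UTP15, cannot be given.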
